A study of Mus musculus with 17 samples.

Results

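The genes described here are 9 channels and channel subunits of the muscle fibre membrane, 6 of them potassium channel genes (Kcnc1, Kcna7, Kcna5, Kcnj2, Kcnj11 and Kcnn3), together with Abcc9, a regulatory subunit of potassium channels, Clcn1, a chloride channel, and Scn4a, a sodium channel. A member was any probe whose gene symbol in the probe annotation was one of these names. This gave 11 probes of 7 genes, out of 25697 probes and 16593 named genes on the array. Kcnj11 and Scn4a had no listed probe and are not analysed here. The members were chosen by hand with earlier results of this series known, among them the log2 differences of Kcnc1 and Kcna7 between immobile and mobile limbs. Differences between immobile and mobile limbs are therefore given as a description: no p is printed for a member, and the limma calls are only counted beside those of all probes. Whether the plasmid results also entered that choice is not recorded.

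The series asks what p53 does in muscle that wastes in an immobilized limb. All 17 samples are tibialis anterior, a shin muscle, of male mice aged 8 weeks, taken at day 3 and measured on 1 single-colour bead array each. The immobilization experiment holds mobile hindlimbs of littermate control mice, immobilized hindlimbs of littermate control mice and immobilized hindlimbs of p53 mKO mice (3 arrays each). The labels do not spell out p53 mKO, and give neither the alleles of the littermates nor their strain. The transfection experiment holds C57BL/6 muscles that received either control plasmid or p53 plasmid by transfection (4 arrays each), with no statement of how many fibres took it up. No listed probe was named Trp53, so neither the p53 mKO nor the p53 plasmid was checked at the gene it targets. The labels do not tie limbs to mice, so p-values weigh differences against a spread between arrays that may be partly technical. Muscle fibre markers such as Ckm and Acta1 averaged 15.18 to 15.37 on every array, close to the highest value of the table, 15.61.

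A muscle fibre fires an action potential when its sodium channel, Nav1.4 (Scn4a), opens, and delayed-rectifier potassium channels of the Kv families help to end it. At rest the membrane is held near its resting potential by inward-rectifier potassium channels such as Kir2.1 (Kcnj2) and, in skeletal muscle to an unusual degree, by the chloride channel ClC-1 (Clcn1), whose loss causes myotonia. The ATP-sensitive potassium channel of the fibre joins the pore Kir6.2 (Kcnj11) to the sulphonylurea receptor SUR2A (Abcc9) and opens when the cell's energy charge falls, and the small-conductance calcium-activated channel SK3 (Kcnn3) is known as a gene that denervated muscle switches on.

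All values below are the authors' log2 expression values. The lowest in the table is 8.21, and values near it are compressed, so that the differences of dim probes are understated. Values of different probes are not compared as levels, and in whole muscle fewer cells of a type and less RNA per cell cannot be told apart.

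Kcnc1 and Kcna7 lie near each other on mouse chromosome 7 (GRCm38.p6), Kcna7 at chr7:45405960-45411382 and Kcnc1 at chr7:46396219-46438706, 984.8 kb apart. Kcnj11 lies between them at chr7:46097123-46100952. Clcn1 is at chr6:42284851-42315764, Kcna5 at chr6:126532551-126535555, Abcc9 at chr6:142587862-142702766, Kcnj2 at chr11:111066164-111076825, Scn4a at chr11:106317545-106365559 and Kcnn3 at chr3:89520164-89672494. The 250 bases before 1 start site that the RefSeq promoter table lists (GRCm38.p6) are printed for the 4 genes whose probes differed most between groups, Kcnc1, Kcna7, Abcc9 and Clcn1, to show what the promoters of genes that were lower together hold. For Kcnc1, Clcn1 and Abcc9 that start lies inside the gene's span as given here, which begins farther upstream, so the windows of these 3 lie within the span, that of Kcnc1 but for its first base. Capitals mark matches on either strand to CAGCTG (an E-box that myogenic factors bind), the MEF2 site, the p53 half-site, GGGCGG (the GC box) and TATAAA (the TATA box).
Kcnc1, chr7:46396218-46396467, plus strand: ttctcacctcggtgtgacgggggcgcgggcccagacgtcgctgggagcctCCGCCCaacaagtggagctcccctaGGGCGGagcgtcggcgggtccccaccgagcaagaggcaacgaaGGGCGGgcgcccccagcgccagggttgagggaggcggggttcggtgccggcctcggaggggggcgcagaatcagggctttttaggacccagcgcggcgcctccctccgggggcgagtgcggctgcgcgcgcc
Kcna7, chr7:45405710-45405959, plus strand: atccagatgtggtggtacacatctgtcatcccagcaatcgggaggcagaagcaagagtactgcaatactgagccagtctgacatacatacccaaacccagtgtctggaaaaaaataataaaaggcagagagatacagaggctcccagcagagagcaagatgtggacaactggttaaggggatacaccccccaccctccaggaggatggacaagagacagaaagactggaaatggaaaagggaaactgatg
Abcc9, chr6:142702275-142702524, minus strand: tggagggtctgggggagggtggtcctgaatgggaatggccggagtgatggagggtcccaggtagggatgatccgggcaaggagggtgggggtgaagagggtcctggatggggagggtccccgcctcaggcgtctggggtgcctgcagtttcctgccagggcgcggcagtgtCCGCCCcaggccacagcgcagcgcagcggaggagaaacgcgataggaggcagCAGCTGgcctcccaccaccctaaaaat
Clcn1, chr6:42286435-42286684, plus strand: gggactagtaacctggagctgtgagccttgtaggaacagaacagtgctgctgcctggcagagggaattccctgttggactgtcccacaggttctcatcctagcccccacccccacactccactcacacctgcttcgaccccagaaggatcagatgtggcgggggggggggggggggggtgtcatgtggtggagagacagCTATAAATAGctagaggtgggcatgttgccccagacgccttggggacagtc
The Kcnc1 window held 3 GC boxes, the Abcc9 window held 1 GC box and 1 E-box, and the Clcn1 window held 1 MEF2 site that overlaps its TATA box. The Kcna7 window held no match. Of the 8 members with a promoter sequence, 3 held a GC box, 2 an E-box, 1 a MEF2 site, 1 a TATA box and 0 a p53 half-site. Of all 32851 promoter windows of the same length, 32.7% held a GC box, 13% that E-box, 2.9% a MEF2 site, 12.4% a TATA box and 7.1% a p53 half-site. These matches are a description of the letters in the window and say nothing of binding.

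Immobile limbs were compared with mobile limbs to ask which genes answer to immobilization, and of the members Kcnc1 and Kcna7 differed most between them. Kcnc1, which encodes Kv3.1, a fast delayed rectifier best known from neurons, had 2 probes. On the brighter (ILMN_2717814) the mobile control arrays read 11.97, 12.19 and 12.06, the immobile control arrays 9.91, 9.72 and 9.86, and the immobile p53 mKO arrays 10.03, 9.95 and 9.79. Every mobile array lay above every immobile array of either genotype. The difference from the mobile mean was -2.24 in immobile controls, 4.73-fold lower, and -2.15 in p53 mKO limbs. By size the first of these differences was the 4th most negative of 15412 probes tested. The dimmer Kcnc1 probe (ILMN_1239595) read 8.52 to 8.58 in mobile, 8.31 to 8.38 in immobile control and 8.34 to 8.39 in immobile p53 mKO limbs. It differed by -0.21 and -0.19, in the same direction but close to the floor.

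Kcna7, which encodes Kv1.7, a voltage-gated channel of heart and skeletal muscle, had 1 probe (ILMN_2619156). It read 10.43, 10.66 and 10.59 in mobile, 8.96, 9.0 and 8.85 in immobile control and 9.11, 9.07 and 9.02 in immobile p53 mKO limbs. The mobile arrays again stood apart from all 6 immobile arrays. The difference from mobile limbs was -1.62 in controls, 3.08-fold lower, and -1.49 in p53 mKO. Kcna5, which encodes Kv1.5, a delayed rectifier also known from vascular smooth muscle and heart, behaved otherwise. Its probe (ILMN_1259851) read 9.06, 8.92 and 9.26 in mobile, 8.74, 8.79 and 9.02 in immobile control and 8.66, 8.97 and 9.11 in immobile p53 mKO limbs, so that all 3 groups overlapped.

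The channels that set the resting potential were lower by less. For Clcn1, the brighter probe (ILMN_2802672) read 9.61, 9.71 and 9.60 in mobile, 8.96, 9.21 and 8.83 in immobile control and 9.25, 9.18 and 8.86 in immobile p53 mKO limbs. No immobile array reached the mobile range, and the differences were -0.64 in controls, or 1.56-fold, and -0.54 in p53 mKO. The dimmer Clcn1 probe (ILMN_1232468) read 8.51 to 8.61 in mobile and 8.40 to 8.51 in the 6 immobile arrays. Kcnj2 (ILMN_2875048) read 9.37, 9.33 and 9.28 in mobile, 8.91, 8.87 and 8.67 in immobile control and 8.98, 8.95 and 8.67 in immobile p53 mKO limbs. It too was separate from the mobile arrays, by -0.51 in controls, or 1.42-fold, and -0.46 in p53 mKO.

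Abcc9 had 3 probes that did not show the same thing. The brightest (ILMN_3104271) read 11.41, 11.44 and 11.52 in mobile, 10.97, 11.17 and 10.95 in immobile control and 11.34, 11.42 and 11.07 in immobile p53 mKO limbs. All immobile controls lay below the mobile arrays (difference -0.43), while p53 mKO limbs overlapped them (difference -0.18). The second (ILMN_2623859) read 10.26, 10.83 and 10.07 in immobile control and 10.68, 10.92 and 9.99 in immobile p53 mKO limbs against 10.74, 10.67 and 10.89 in mobile limbs. Its lowest values in both immobile groups came from the arrays numbered 3, and both groups overlapped the mobile arrays. Without those arrays the p53 mKO difference, -0.24 with them, was 0.03. The third (ILMN_1233056) stayed between 8.40 and 8.54 on these 9 arrays.

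Kcnn3 (ILMN_2612915) did not pass the filter on low values in any fit and was not tested. It lay between 8.32 and 8.41 on all 17 arrays, 8.34 to 8.35 in mobile, 8.36 to 8.41 in immobile control and 8.33 to 8.38 in immobile p53 mKO limbs. At this distance from the floor a change in a rare transcript was not detectable. Beside it, 5 of 7 genes of denervated muscle, a list that includes Chrna1, Myog and Runx1, were called higher in immobile control limbs and 0 lower, with a median difference of 0.91, beside 4.3% of all probes called higher. In immobile p53 mKO limbs 3 of the 7 were called higher and 0 lower, with a median of 0.60, beside 3.67% of all probes.

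**Figure D1:**
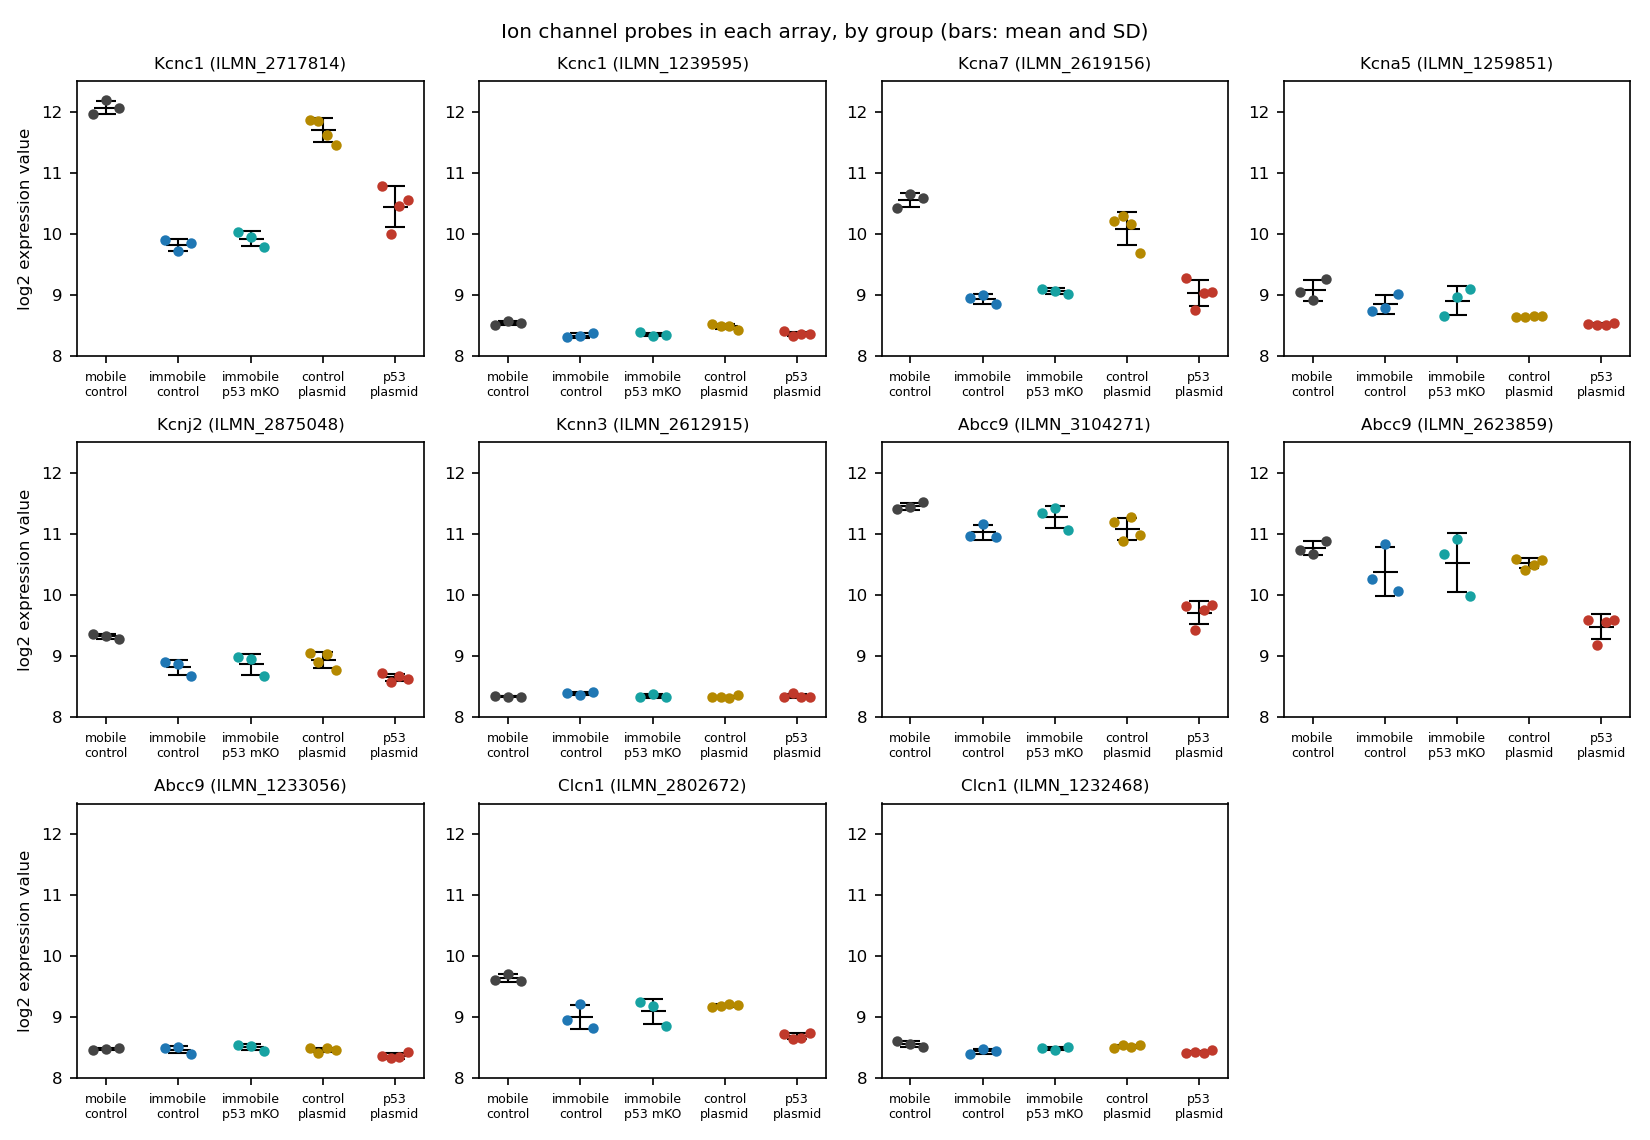
Each panel shows 1 probe, with the log2 expression value on the vertical axis, 1 point per array, and the mean with its SD as a bar for each of the 5 groups. The brighter Kcnc1 probe is at 11.97 to 12.19 in mobile limbs and at 9.72 to 10.03 in immobile limbs, while the 2 brighter Abcc9 probes are lowest after the p53 plasmid.

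Over the 10 probes tested, limma called 6 lower and 0 higher in immobile control limbs, where it called 6.31% of all probes lower and 4.3% higher. For immobile p53 mKO limbs against mobile limbs it called 5 lower and 0 higher, where 5.23% of all probes were called lower and 3.67% higher. The groups of 7 and 5 of the 10 probes did not overlap, beside 15.5% and 16.8% of all probes that were lower without overlap. The members were chosen knowing the first of these contrasts, and both share the mobile arrays, so nothing is read from the counts. The median difference was -0.40 and -0.21 for the members, and 0.00 over all probes in both. Of the 6 calls, that of Kcnj2 was lost without mobile control array 2, that of the brighter Clcn1 probe without mobile control array 2 or 3, and that of the brightest Abcc9 probe without any 1 mobile control array or without immobile control array 1 or 3, or with no filter on low values. In p53 mKO limbs the calls of Kcnj2 and the brighter Clcn1 probe were lost without any 1 mobile control array or without p53 mKO array 2, that of Clcn1 also without p53 mKO array 3 or with no filter, and that of the dimmer Kcnc1 probe without p53 mKO array 2 or 3. Beside these differences the 6 macrophage markers with a probe, of 8 listed, averaged 9.77 to 9.87 in mobile, 10.19 to 11.80 in immobile control and 10.22 to 10.92 in immobile p53 mKO limbs. Of these 6, 1 was called higher in each immobile group, and their part in the result was not tested.

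Immobile p53 mKO limbs were compared with immobile control limbs to ask whether the channels differ by genotype in immobilized muscle. None of the 10 probes tested passed (each adjusted p = 1 by limma, 0 called lower and 0 higher), and limma called 0 of all 15412 probes (0%), with 2.87% below an unadjusted p of 0.05. For the brighter Kcnc1 probe the difference was 0.09 with a 95% interval of -0.10 to 0.29, and for Kcna7 it was 0.13 with an interval of -0.03 to 0.29. These intervals do not reach the size of the differences between immobile and mobile limbs. Clcn1 differed by 0.10 (-0.19 to 0.38), Kcnj2 by 0.05 (-0.17 to 0.27) and Kcna5 by 0.06 (-0.25 to 0.38). The largest difference was in the brightest Abcc9 probe, 0.25 (0.02 to 0.47, unadjusted p = 0.0356 by limma).

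All 10 differences were above 0, from 0.02 to 0.25 but they share the immobile control arrays of the contrast that chose the members, and several probes stand for the same gene. Kcna7 was the 1 probe whose groups did not overlap (2.74% of all probes were higher without overlap). Same-numbered arrays of these groups deviate together, and within those pairs p53 mKO minus control was 0.15, 0.07 and 0.17 for Kcna7 and 0.37, 0.25 and 0.12 for the brightest Abcc9 probe. For the brighter Kcnc1 probe it was 0.12, 0.23 and -0.07, so that 1 pair went the other way. Over the 11 member probes, of which Kcnn3 was not tested, 3 had every pair above 0.

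Muscles that received the p53 plasmid were compared with muscles that received the control plasmid to ask what added p53 does to the same genes, on arrays that the immobilization results do not share. All 6 measured genes that were bright enough to test had lower values, and Abcc9, Kcnc1 and Kcna7 fell most. The brightest Abcc9 probe read 11.20, 10.89, 11.28 and 10.99 with the control plasmid and 9.82, 9.43, 9.76 and 9.84 with the p53 plasmid. The groups were more than a log2 unit apart at their closest arrays, 9.84 and 10.89. The mean fell by 1.38 ± 0.11 SE on the log2 scale, a 2.60-fold difference (adjusted p = 3.63e-05 by limma, lower in 4 of 4 arrays), and ranked 28th from the most negative of 15412 probes. The second Abcc9 probe read 10.60, 10.42, 10.50 and 10.58 with the control plasmid and 9.60, 9.18, 9.56 and 9.59 with the p53 plasmid. It fell by 1.04 ± 0.10 SE (adjusted p = 5.30e-05 by limma), again with no overlap. The third, near the floor, ran from 8.42 to 8.49 and from 8.33 to 8.43, overlapping, with a difference of -0.10 ± 0.03 SE (adjusted p = 0.0211 by limma). That last call was lost without p53 plasmid array 2 (adjusted p = 0.0561) or array 3 (adjusted p = 0.0539).

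Of the voltage-gated channels, the brighter Kcnc1 probe read 11.87, 11.86, 11.63 and 11.46 with the control plasmid and 10.79, 10, 10.46 and 10.56 with the p53 plasmid. Array 2 of the p53 group was the lowest, and the groups did not overlap. The fall was 1.25 ± 0.17 SE on the log2 scale, or 2.38-fold (difference -1.25, adjusted p = 0.000327 by limma). The dimmer Kcnc1 probe moved the same way by -0.12 ± 0.03 SE (adjusted p = 0.00827 by limma). Kcna7 read 10.22, 10.29, 10.16 and 9.69 against 9.29, 8.76, 9.03 and 9.05, without overlap. Its difference was -1.06 ± 0.15 SE, or 2.08-fold (adjusted p = 0.000457 by limma). Kcna5 read 8.65 to 8.66 with the control plasmid and 8.51 to 8.55 with the p53 plasmid, a difference of -0.13 ± 0.02 SE (adjusted p = 0.000659 by limma) that rests on the very small spread of these arrays. With the spread taken from all 17 arrays, Kcna5 did not pass (adjusted p = 0.259).

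Of the channels of the resting membrane, the brighter Clcn1 probe read 9.16, 9.18, 9.21 and 9.20 with the control plasmid and 8.72, 8.65, 8.66 and 8.74 with the p53 plasmid. The 4 arrays of each group were close together and the groups far apart. The difference was -0.50 ± 0.03 SE, or 1.41-fold (adjusted p = 1.09e-05 by limma). The dimmer Clcn1 probe differed by -0.09 ± 0.02 SE (adjusted p = 0.00917 by limma). Kcnj2 read 9.05, 8.90, 9.03 and 8.78 against 8.72, 8.58, 8.68 and 8.63, a difference of -0.29 ± 0.06 SE (adjusted p = 0.00444 by limma). Its groups were separate, but only by 8.72 against 8.78. Kcnn3 stayed at 8.32 to 8.36 with the control plasmid and 8.33 to 8.39 with the p53 plasmid.

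The plasmid comparison moved much of the array: limma called 28.4% of all probes lower and 29.6% higher. Against that background, 10 of 10 member probes tested were called lower, and 9 of 10 had groups that did not overlap, where 26.4% of all probes were lower without overlap. These 10 probes stand for 6 genes. As it is not recorded whether the plasmid results entered the choice of members, the counts are a description. The median difference of the members was -0.39, and that of all probes was 0.00. Muscle fibre markers lay at 15.26 to 15.29 with the control plasmid and 15.18 to 15.27 with the p53 plasmid, 1 of 8 called higher and 1 lower, on probes near the top of the scale. Fast fibre markers went from 14.89 to 14.99 down to 14.47 to 14.71, with 4 of 6 called lower. Slow fibre markers lay at 10.43 to 11.11 and 10.13 to 10.63, with 3 of 7 called lower and 0 higher. Of the genes of denervated muscle, 2 of 7 were called higher and 1 lower. Macrophage markers were higher, 12.53 to 12.73 against 11.26 to 11.62, with 6 of 6 called higher. Smooth muscle and pericyte markers, cells that also use Abcc9, lay at 9.38 to 9.47 and 9.30 to 9.36, with 3 of 7 called lower and 1 higher, and endothelial markers at 9.77 to 9.83 and 9.53 to 9.64, with 5 of 6 called lower. The part of these cell types, or of denervation, in the falls was not tested.

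**Figure D2:**
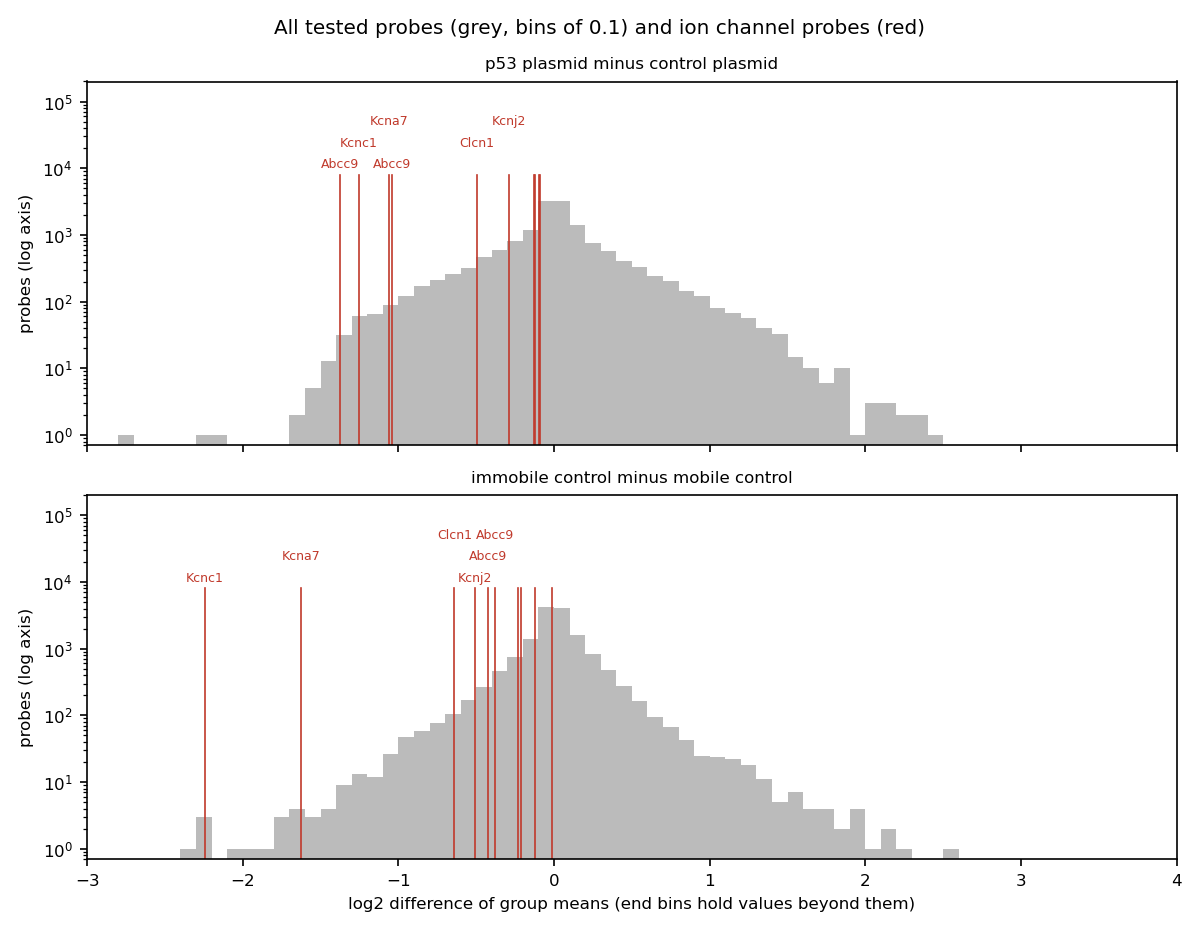
The horizontal axis is the log2 difference of group means and the vertical axis, a log axis, the number of tested probes in bins 0.1 wide, with the p53 plasmid comparison above and the immobilization of control limbs below. Red lines are the 10 tested ion channel probes; 4 of them lie below -1 after the p53 plasmid (2 of Abcc9, and Kcnc1 and Kcna7), and 2 after immobilization (Kcnc1 at -2.24 and Kcna7 at -1.62).

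Set side by side, the members did not keep 1 order in the 2 experiments. On immobilization of control limbs the brighter Kcnc1 probe differed by -2.24, Kcna7 by -1.62, the brighter Clcn1 probe by -0.64, Kcnj2 by -0.51 and the brightest Abcc9 probe by -0.43. After the p53 plasmid the same probes differed by -1.25, -1.06, -0.50, -0.29 and -1.38. The brightest Abcc9 probe thus went from the smallest to the largest of these 5, a change of order whose difference between experiments was not tested. The second Abcc9 probe differed by -0.38 on immobilization and by -1.04 after the p53 plasmid, less than Kcnc1 and Kcna7 in both. The third differed by -0.01 and -0.10.

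The control plasmid muscles can also be set against the mobile limbs of the other experiment, but plasmid delivery, experiment and strain cannot be told apart in that comparison, and it shares the mobile arrays that chose the members. As a description, all 10 probes tested were lower with the control plasmid. The differences were -0.47 ± 0.13 SE for Kcna7, -0.45 ± 0.09 SE for the brighter Clcn1 probe, -0.43 ± 0.10 SE for Kcna5, -0.39 ± 0.08 SE for Kcnj2, and -0.37 for both the brighter Kcnc1 probe (± 0.15 SE) and the brightest Abcc9 probe (± 0.12 SE). Limma called 5 of the 10 lower, where it called 22.1% of all probes lower and 15.5% higher, and Kcnc1 was not among the 5. Of the 10, 7 were lower without overlap, beside 30.1% of all probes. Beside these differences macrophage markers were called higher in 6 of 6 (median 1.64) and denervation genes in 7 of 7 (median 0.69), while endothelial markers were called lower in 5 of 6 (median -0.38) and smooth muscle and pericyte markers in 5 of 7 (median -0.34). Their part in the result was not tested. Of those calls, Kcna7 lost its own without mobile control array 2, and the brightest Abcc9 probe without mobile control array 2 or 3 or control plasmid array 2 or 4.

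Ordered by group mean, the brighter Kcnc1 probe ran from mobile control (12.07 ± 0.11 SD, n = 3) over control plasmid (11.71 ± 0.20 SD, n = 4) and p53 plasmid (10.45 ± 0.33 SD, n = 4) to immobile p53 mKO (9.92 ± 0.12 SD, n = 3) and immobile control (9.83 ± 0.10 SD, n = 3). Neighbours in that order were separate down to the p53 plasmid, and the last 3 groups overlapped from one to the next. Plasmid and immobilization groups come from different experiments, so plasmid delivery, experiment and strain cannot be told apart between them. Kcna7 had the same 2 groups at the top, mobile control (10.56 ± 0.12 SD, n = 3) and control plasmid (10.09 ± 0.27 SD, n = 4), each separate from the next. Its lower 3 groups, immobile p53 mKO (9.07 ± 0.05 SD, n = 3), p53 plasmid (9.03 ± 0.22 SD, n = 4) and immobile control (8.94 ± 0.08 SD, n = 3), each overlapped the next in that order, though the immobile groups did not overlap each other.
The brightest Abcc9 probe had 4 groups from mobile control (11.46 ± 0.06 SD, n = 3) to immobile control (11.03 ± 0.12 SD, n = 3) that overlapped with their neighbours, and the p53 plasmid (9.71 ± 0.19 SD, n = 4) stood apart below them. The brighter Clcn1 probe had mobile control alone at the top (9.64 ± 0.06 SD, n = 3) and the p53 plasmid alone at the bottom (8.69 ± 0.04 SD, n = 4), with the other 3 groups overlapping between. Kcna5 was ordered by experiment: the 3 immobilization groups, at 8.85 to 9.08, all had higher means than the control plasmid (8.66 ± 0.01 SD, n = 4) and the p53 plasmid (8.53 ± 0.02 SD, n = 4).

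**Figure D3:**
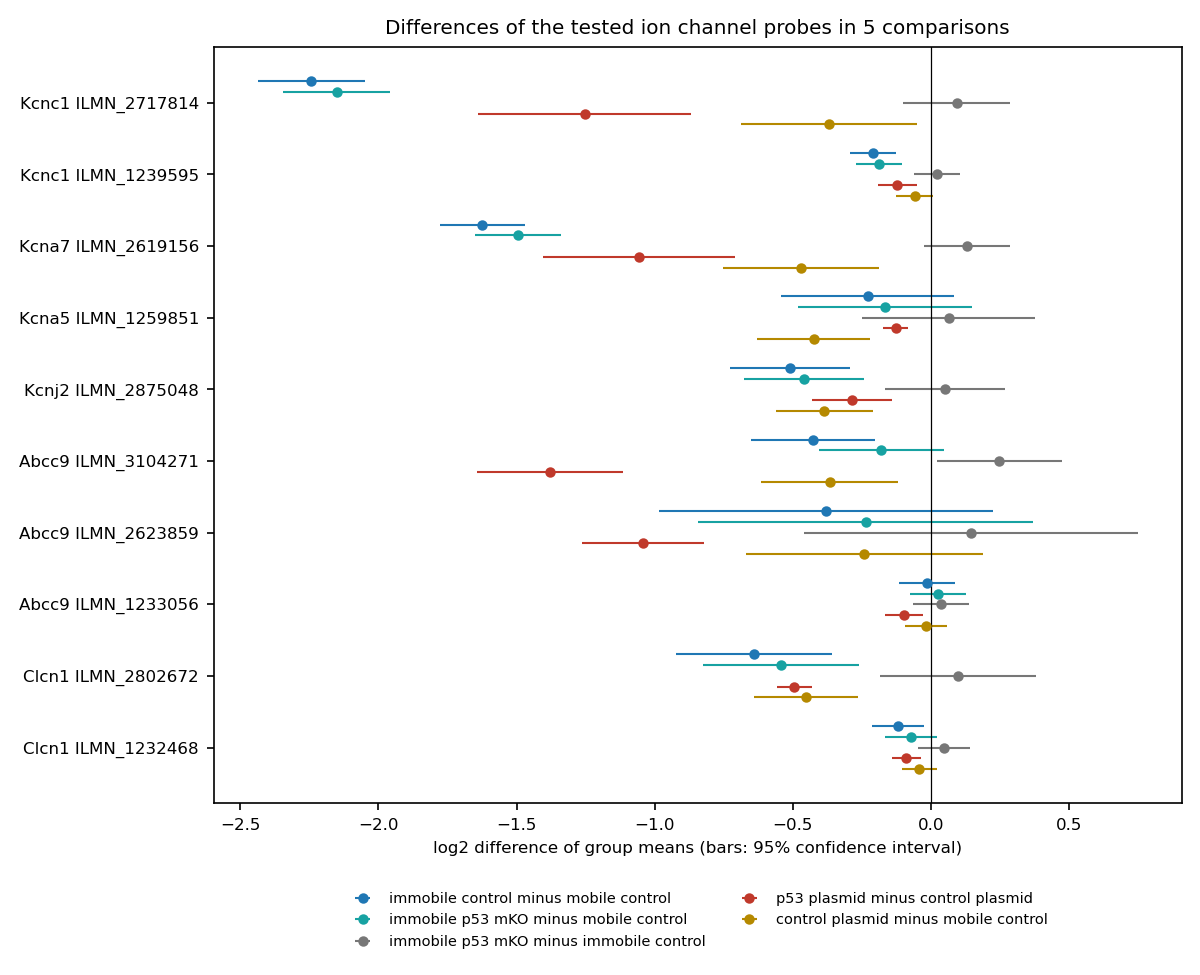
Points are log2 differences of group means for the 10 tested probes, with bars for the 95% confidence interval and a colour for each of the 5 comparisons. The brighter Kcnc1 probe and Kcna7 are farthest below 0 for immobile against mobile limbs, and the brightest Abcc9 probe for the p53 plasmid. The grey points for p53 mKO against control lie at 0.02 to 0.25.

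Across the 17 arrays, which share their groups and the authors' normalization, the brighter Kcnc1 probe and Kcna7 had a Pearson correlation of 0.96, and of 0.84 once each group's mean was removed. The 2 Kcnc1 probes had 0.95 and 0.74. Kcnj2 and the brighter Clcn1 probe had 0.94 and 0.63. Kcnc1 and the brightest Abcc9 probe had 0.32 over all arrays and 0.48 within groups, and Kcnc1 and Kcna5 0.12 and -0.18. Kcnc1 and Kcna7 were chosen with their differences between immobile and mobile limbs known, so their value over all arrays partly follows from that choice. By the same measure over 17 arrays, the genes most like Kcnc1 were Fam78a (0.97), Mlf1, first described in myeloid leukaemia (0.97), and Kcna7 itself (0.96). Those most like Kcna7 were Atg101, an autophagy gene (0.99), Perm1, a muscle gene tied to mitochondrial metabolism (0.99), and Tmem25 (0.98). Those most like Clcn1 were Lrpprc, a mitochondrial RNA-binding protein (0.98), Mfn2, a mitochondrial fusion protein (0.97), and Plcd4, a phospholipase (0.97). For these neighbours other than Kcna7 no value within groups is given, so their correlations may rest on group means.

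**Figure D4:**
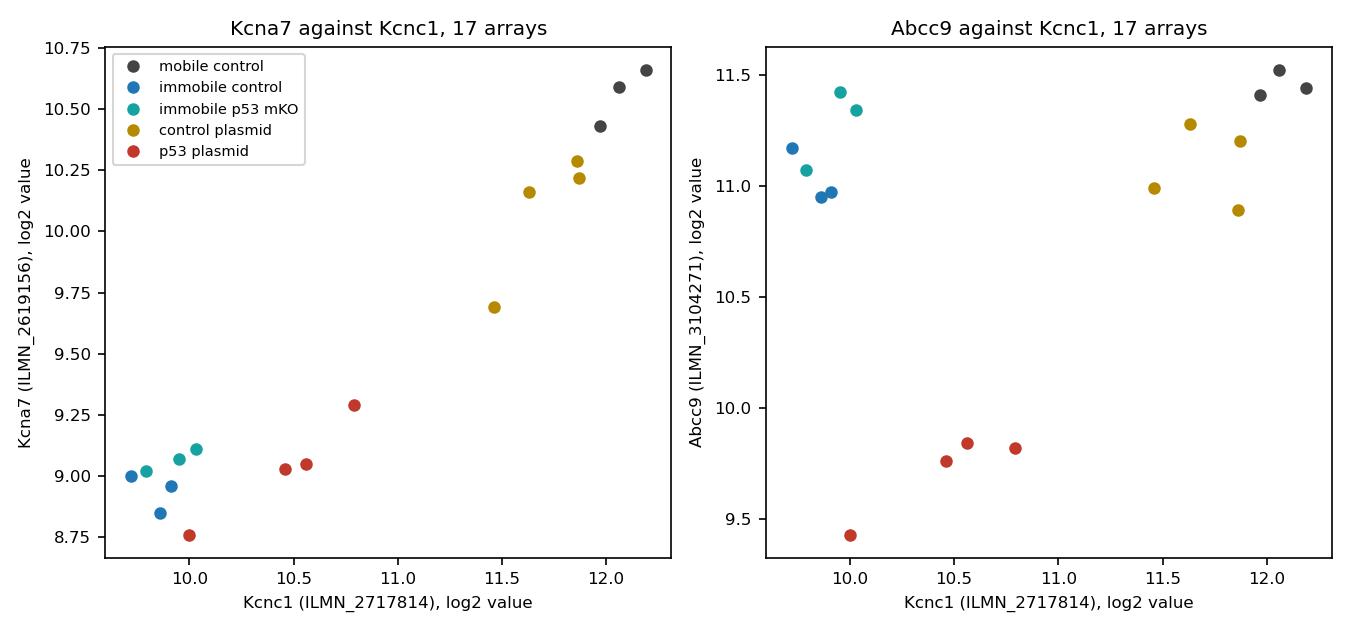
Each point is 1 of the 17 arrays, with the log2 value of the brighter Kcnc1 probe on the horizontal axis and that of Kcna7 (left) or the brightest Abcc9 probe (right) on the vertical axis, coloured by group. Both potassium channels are high in the mobile and control plasmid arrays and low in the other 3 groups. With the p53 plasmid the Kcna7 mean is within the range of the immobile arrays, 8.85 to 9.11. Its single arrays run from 8.76 to 9.29, and the Kcnc1 mean is above the immobile arrays. These groups come from different experiments, so plasmid delivery, experiment and strain cannot be told apart between them. Abcc9 is at 10.95 to 11.42 in the immobile arrays, where Kcnc1 is lowest, and at 9.43 to 9.84 with the p53 plasmid.

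A list of 69 other genes of membrane excitability, drawn up with the earlier results known, had 59 with a listed probe, each taken at its brightest. For that reason its differences between immobile and mobile limbs are also a description, and nothing is read from their counts. In immobile control limbs 8 of the 47 tested were called lower and 1 higher, beside 6.31% and 4.3% of all probes, and the median difference was -0.06. Of the genes listed under the sodium pump and membrane anchors, 4 of 5 were called lower. Among them were Atp1b1, a beta subunit of the pump (-0.94 ± 0.11 SE), Atp1b4 (-0.47 ± 0.08 SE) and Fxyd1, phospholemman, which regulates the pump (-0.49 ± 0.11 SE). Of 9 genes of excitation-contraction coupling, Jph2, a junctophilin that ties the surface membrane to the calcium store (-0.38 ± 0.05 SE), and Cacng6 (-0.44 ± 0.07 SE) were called lower, and Cacng1, the gamma subunit of the muscle calcium channel, higher (0.57 ± 0.10 SE). Of 10 other chloride channels and transporters, Ano5 was called lower (-0.49 ± 0.07 SE). Of 12 other inward-rectifier, calcium-activated and two-pore potassium channel genes, 1 was called lower, Kcnj12 (-0.37 ± 0.10 SE). None of 7 other voltage-gated potassium channel genes and none of 4 other sodium channel subunits was called.
In immobile p53 mKO limbs against mobile limbs, 5 of 47 were called lower and 2 higher, beside 5.23% and 3.67% of all probes. The share called higher was thus near that of all probes. The 5 were Atp1b1 (-0.91 ± 0.11 SE), Jph2, Ano5, Cacng6 and Atp1b4, and the 2 were Cacng1 (0.54 ± 0.10 SE) and Slc12a2, a sodium-potassium-chloride cotransporter (0.58 ± 0.12 SE). Between the immobile genotypes 0 of 47 were called.

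After the p53 plasmid, 26 of 44 of these other genes were called lower and 6 higher, beside 28.4% and 29.6% of all probes, with a median difference of -0.19. All 5 tested genes listed under the sodium pump and membrane anchors fell, among them Atp1b2 (-1.28 ± 0.08 SE, adjusted p = 1.44e-05 by limma) and Fxyd1 (-0.96 ± 0.08 SE). Of 9 genes of excitation-contraction coupling 8 fell, Cacng6 among them (-0.33 ± 0.03 SE), with a median of -0.93. Of 10 chloride channels and transporters, 6 fell and 2 rose, Slc12a2 (-1.04 ± 0.10 SE) and Ano10 (-0.42 ± 0.04 SE) being among the fallen. Of the 10 inward-rectifier, calcium-activated and two-pore potassium channel genes, 4 fell and 3 rose, with Kcnn1 among the fallen (-0.34 ± 0.03 SE). Of 6 other voltage-gated potassium channel genes 2 fell and 1 rose, and of 4 other sodium channel subunits 1 fell and 0 rose. Kcnc4, which encodes Kv3.4, of the same family as Kcnc1, fell by 1.24 ± 0.12 SE (difference -1.24, adjusted p = 7.38e-05 by limma), and Scn4b, a beta subunit of sodium channels, by 1.22 ± 0.22 SE (difference -1.22, adjusted p = 0.00166 by limma). Kcnj12, which encodes Kir2.2, a close relative of Kcnj2, fell by 0.40 ± 0.04 SE (difference -0.40), and Kcnj8, which encodes Kir6.1, the pore that pairs with Abcc9 in vessels, fell by 0.32 ± 0.04 SE (difference -0.32). Kcnc4, Scn4b, Kcnj12 and Kcnj8 were chosen after their values were seen.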

How the data were processed

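Total RNA of tibialis anterior was extracted with TRIzol, column-purified, amplified and labelled with biotin, per the labels' protocols. The values deposited by the authors are taken as log2 from their range (8.21 to 15.61). The arrays had been normalized against one another, as array medians of 8.48 to 8.50 show, by a method not given in the sources used here, as are the background correction and the log base. The number of arrays limits the precision, and no detection values were used.

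Of 25697 probes, 23978 had 1 gene symbol, 0 had several and 1719 were unnamed; symbols were updated through gene identifiers (99.93% matched). A probe was tested when its mean over the arrays of a fit lay above the 40th percentile of such means, a filter blind to group. This kept 15412 probes in the fit of the 9 immobilization arrays, 15412 in that of the 8 transfection arrays and 15400 in that of all 17. Per probe, limma 3.58.1 (R 4.3.3, lmFit, then eBayes) tested each difference without a block, with Benjamini-Hochberg adjustment over all probes tested. A probe was called at an adjusted p under 0.05. This was tested on simulated data whose noise was independent between arrays, unlike same-numbered immobile arrays, which deviate together. Intervals and standard errors come from these fits.

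The members and gene lists were chosen with earlier results of these data known. Every member probe is reported; of other channel genes, up to 6 called in each direction with the smallest p are named per comparison, and the 3 genes most correlated with Kcnc1, Kcna7 and Clcn1. Same-numbered arrays of immobile control and p53 mKO limbs deviate together (correlations 0.63, 0.54 and 0.84 across probes), a pairing taken from the data; other groups showed none in every pair. Alternatives were quantile normalization, other filters, 1 probe per gene, an intensity trend, array weights, a replicate block, other samples in the fit and leaving out each array. Promoters are from RefSeq (GRCm38.p6), with 8 of 9 members found. Python 3.11.15 was used for summaries.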

Additional observations from a re-analysis of the deposited data

Results flagged for a closer look

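Over 22 sets of 4 plasmid arrays (11 probes in each of the 2 plasmid groups), 2 held an array far from the others, where chance gives about 1 in 20 sets. The second Abcc9 probe (ILMN_2623859) read 9.18 on p53 plasmid array 2 against 9.56 to 9.60 on the other 3 arrays. The same array was also the lowest of its group for every other tested member probe except the dimmer Clcn1 probe. Beside that it had the lowest mean of fast fibre markers in its group (14.47) and the highest of macrophage markers (12.73), so its deviation was not limited to the channels. Without it the Abcc9 difference was -0.94 in place of -1.04. Kcnn3 read 8.39 on the same array against 8.33 to 8.34 on the other 3, at values too close to the floor to be read as a level.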

How the results depend on the processing

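After the p53 plasmid, every tested member kept its direction under every alternative run, and 3 calls were lost, all given above (Kcna5 with all 17 arrays in 1 fit, the dimmest Abcc9 probe without p53 plasmid array 2 or 3). Counts over all probes were less steady in the immobilization experiment. In immobile control limbs, where 663 were called higher and 973 lower, array weights gave 1706 and 1819, and leaving out 1 array gave 254 to 770 and 501 to 1011, the lowest without mobile control array 2. In p53 mKO limbs against mobile limbs, where 566 were called higher and 806 lower, array weights gave 1425 and 1554, the fit of only the 2 groups compared gave 1064 higher, and leaving out 1 array gave 174 to 1010 and 378 to 960. The cause was not tested.

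With no filter on low values, the brightest Abcc9 probe lost its call in immobile control limbs and the brighter Clcn1 probe in p53 mKO against mobile limbs. Reversals of direction were near 0 and uncalled. In immobile control limbs the dimmest Abcc9 probe went from -0.01 to 0.025 with array weights and 0.02167 without both immobile arrays numbered 3, and ran from -0.03833 to 0.02167 with 1 array left out. In p53 mKO against mobile limbs the second Abcc9 probe was at 0.03333 without both immobile arrays numbered 3 and ran from -0.4317 to 0.03333. Between the immobile genotypes it was -0.00697 with array weights and ran from -0.05167 to 0.4133, Kcnj2 from -0.02333 to 0.1483 and Kcna5 from -0.035 to 0.19.

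In control plasmid muscles against mobile limbs, a description only, 2 member probes not called in the main fit were called under other settings. The brighter Kcnc1 probe was called with array weights or with only those groups, and the second Abcc9 probe with only those groups.

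With the replicate number as a block, 871 probes were called higher and 1228 lower in immobile control limbs, 711 and 1015 in p53 mKO limbs against mobile limbs, 0 and 0 between the immobile genotypes, 4336 and 4178 after the p53 plasmid, and 2336 and 3300 in control plasmid muscles against mobile limbs. The block changed no member's call. Leaving out both immobile arrays numbered 3, and the block with only the immobile genotypes in the fit, were chosen after seeing the data.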

Other observations

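Beside 29.6% of all probes called higher, 6 of the 44 other channel genes tested (13.6%) rose after the p53 plasmid. They were Lrrc8d, a subunit of volume-regulated anion channels (0.90 ± 0.06 SE), Kcnab2, a beta subunit of Kv channels (0.88 ± 0.07 SE), the potassium channels Kcnk6 (0.81 ± 0.07 SE), Kcnk13 (0.86 ± 0.08 SE) and Kcnn4 (0.56 ± 0.06 SE), and Clcn7, a chloride transporter of lysosomes (0.38 ± 0.03 SE). Their adjusted p ran from 2.11e-05 for Lrrc8d to 8.02e-05 for Kcnn4 by limma. The same 6 were among the 7 of 45 tested that were called higher in control plasmid muscles than in mobile limbs, from 0.20 for Kcnn4 to 0.88 for Kcnab2. Those 7 are 15.6%, beside 15.5% of all probes, so nothing is read from that count. The comparisons share the control plasmid arrays, which enter them with opposite sign. The mean of the macrophage markers was 9.77 to 9.87 in mobile limbs, 11.26 to 11.62 with the control plasmid and 12.53 to 12.73 with the p53 plasmid, and its part in these rises was not tested.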
